A study of Mus musculus with 19 samples.

Results

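Hox genes encode homeodomain transcription factors that give cells their position along the body axis, and they lie in 4 clusters named A, B, C and D. The members described here are the mouse genes whose array symbol is Hox followed by a cluster letter and a paralog number. Of 39 such genes in the RefSeq gene table, 33 had a probe set with a single gene symbol, out of 18193 genes measured that way: 9 in cluster A, 9 in cluster B, 7 in cluster C and 8 in cluster D. The others were not measured through a probe set of their own and are not reported here. Where a gene had several probe sets, as for 11 members, the probe set of highest mean on the 18 neonatal arrays was taken, and the other 22 had a single probe set.

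The series measured RNA of skeletal cells sorted by flow cytometry from mouse limbs at postnatal day 3. The labels give a wild-type genotype for every sample, and the protocol speaks of mice labelled with GFP. Fore and hind limbs were pooled by litter, and all cells lay outside the CD45, Ter119 and Tie2 gates (blood, erythroid and endothelial antigens) and inside the gate for integrin AlphaV. Thy, 6C3 and CD105 then defined 6 populations of 3 arrays each: cells lacking both Thy and 6C3, cells with Thy alone and cells with 6C3 alone, each sorted with CD105 (CD105+) and without it (CD105-). The labels do not say that the arrays of a population came from separate litters, so the p-values measure the spread between arrays, which may be technical. A further single array is titled Thy+6C3+CD105+ and labelled adult. Its source field names sternum and ear and its tissue field names limbs, and it enters no test.

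Values are log2 levels after quantile normalization, so a difference of 1 is a change by a factor of 2. Levels are compared only within a probe set, apart from the median gene mean of 6.76, used to mark low levels. A gene was called at a Benjamini-Hochberg adjusted p under 0.05 in limma, adjusted over all 18193 genes of a comparison. In these bulk samples fewer cells of a type and less RNA per cell cannot be told apart. A list of 15 cartilage markers stood at a mean of 12.41 to 12.55 in the Thy-6C3- populations, against 9.58 to 10.46 in the others. In the Thy-6C3+CD105- population the titles of replicates 2 and 3 say Thy+, against the population field used here. Replicate 3 of Thy+6C3-CD105- stands apart from the other arrays: its deposited values had the smallest standard deviation, 1.91, where the other neonatal arrays had 2.02 to 2.23, and 26.5% of all genes were highest and 17.9% lowest on it.

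In the embryo, Hox genes switch on in the order in which they lie along the chromosome, so that low paralog numbers mark anterior and high numbers posterior or distal positions. In the limb the groups 9 to 13 of clusters A and D act in turn on the upper, middle and terminal segments, and cells of the adult skeleton and connective tissue keep much of this code. The proteins bind DNA with cofactors of the Pbx and Meis families, Polycomb complexes hold silent parts of the clusters closed, and retinoic acid and Cdx factors act upstream of them.

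RefSeq promoter sequence (build GRCm38.p6) was at hand for 19 of the 33 members. Of the 5 members called in any comparison, Hoxd9 and Hoxa10 were among them, and the 250 bases before their starts are shown because both genes are called below. The Hoxd9 stretch is chr2:74697513-74697762 on the plus strand. The Hoxa10 stretches, 1 for each of its annotated starts, are chr6:52240855-52241104 and chr6:52234940-52235189, both on the minus strand. Capitals mark any match to the letters TGATNNAT (joint Pbx and Hox sites), TGACAG (Meis), TTTATGG (posterior Hox proteins) or TATAAA (the TATA box), read on both strands.
Hoxd9: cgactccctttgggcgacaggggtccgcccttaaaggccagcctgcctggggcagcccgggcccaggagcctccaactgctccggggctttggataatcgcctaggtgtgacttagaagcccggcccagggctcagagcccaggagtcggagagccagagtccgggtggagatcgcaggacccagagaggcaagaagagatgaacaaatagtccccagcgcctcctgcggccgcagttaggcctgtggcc
Hoxa10, outer start: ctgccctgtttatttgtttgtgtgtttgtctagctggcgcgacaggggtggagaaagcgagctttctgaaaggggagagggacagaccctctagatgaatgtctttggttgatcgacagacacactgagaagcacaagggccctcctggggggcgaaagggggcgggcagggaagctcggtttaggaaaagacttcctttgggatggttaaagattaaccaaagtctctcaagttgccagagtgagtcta
Hoxa10, inner start: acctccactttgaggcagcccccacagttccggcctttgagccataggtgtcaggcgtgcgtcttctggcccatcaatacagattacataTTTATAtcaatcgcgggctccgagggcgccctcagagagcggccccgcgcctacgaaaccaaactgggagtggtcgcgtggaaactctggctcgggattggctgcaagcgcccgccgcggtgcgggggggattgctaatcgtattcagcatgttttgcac
The only match in these stretches was the reverse of TATAAA, beginning 160 bases before the inner Hoxa10 start. Among 32851 such stretches of all genes, 7.68% held TGATNNAT, 15.9% TGACAG, 2.43% TTTATGG and 12.4% TATAAA. Of 21 stretches of 19 Hox members, 3 held TGATNNAT (Hoxa2, Hoxb1 and Hoxd11), 2 held TGACAG (Hoxa2 and Hoxa3), none held TTTATGG and 2 held TATAAA (Hoxa10 and Hoxd13). G and C made up 65.2% of the Hoxd9 stretch and 51.6% and 59.2% of the Hoxa10 stretches, where the median over all genes was 52.4%.

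Across the 6 populations, 4 of 33 Hox genes were called by the moderated F-test, 12.1% beside 10.1% of all genes: Hoxd9 (adjusted p = 0.000478), Hoxc8 (0.000591), Hoxa10 (0.0113) and Hoxb5 (0.0136). They lie in 4 different clusters. By paralog number the calls were 0 of 10 in groups 1 to 4, 2 of 9 in groups 5 to 8 and 2 of 14 in groups 9 to 13. The share of members called was near that of all genes.

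The means of the populations spread further for Hox genes than for most genes, and so did their replicates. The range between the highest and lowest population mean had a median of 0.75 over the 33 members and 0.55 over all genes, while the pooled replicate SD had medians of 0.385 and 0.284. Groups 1 to 4 had the narrowest ranges, with a median of 0.41, against 1.15 in groups 5 to 8 and 0.85 in groups 9 to 13. Their median pooled replicate SD was also the smallest, at 0.237 against 0.413 and 0.421. Of their 10 members 0 had a mean above the median gene mean, against 3 of 9 and 6 of 14. The part of low levels in these ranges was not tested.

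**Figure D1:**
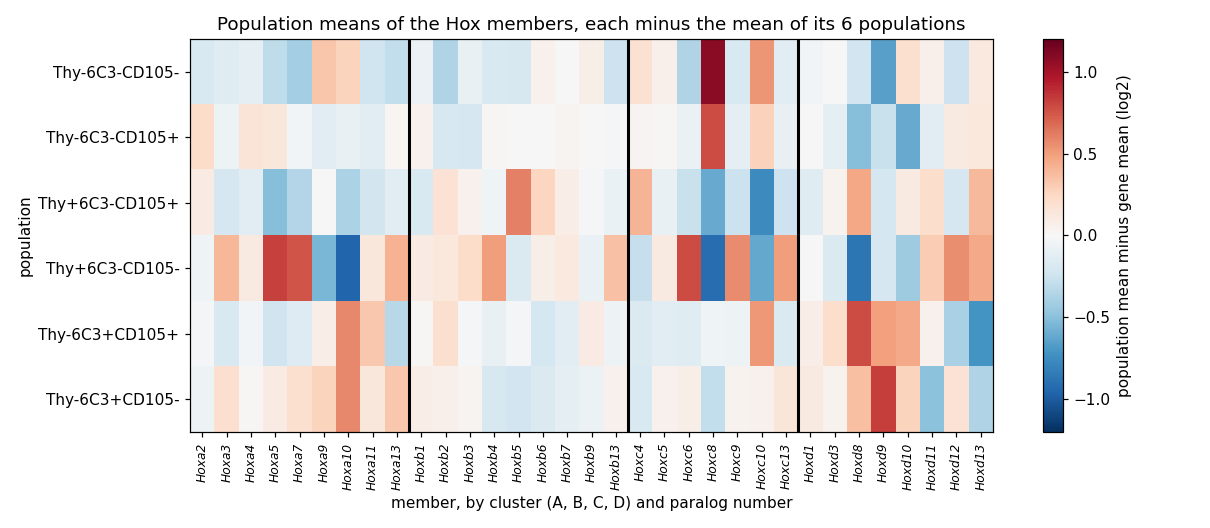
Population means of the 33 Hox genes, each minus the mean of its 6 populations (log2, colour), with genes along the x axis by cluster and paralog number and populations along the y axis. The deepest red is Hoxc8 in Thy-6C3-CD105- cells, where its mean was 5.78, and Hoxd9 is red in both 6C3+ populations.

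Hoxc8, a gene of the thoracic part of the axis, was lower where Thy or 6C3 was present. Its levels in Thy-6C3- cells were 6.24, 5.70 and 5.41 without CD105 and 5.93, 5.33 and 5.20 with it. In Thy+ cells they were 4.33, 3.64 and 3.39 without CD105 and 4.00, 4.22 and 4.08 with it. In the 6C3+ populations they were 5.12, 4.61 and 4.23 with CD105 and 4.56, 4.81 and 3.85 without it. All 6 Thy-6C3- arrays lay above the other 12. Its highest population mean, 5.78, lay below the median gene mean of 6.76. Without detection calls, such low levels cannot be told from background, and this limit holds for the folds of Hoxc8.

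In the Thy step, the Thy+ minus the Thy- population, Hoxc8 fell by 1.38 ± 0.30 (SE) in CD105+ cells (2.61-fold, adjusted p = 0.00696) and by 1.99 ± 0.30 in CD105- cells (3.99-fold, adjusted p = 0.000252). In the 6C3 step it fell by 1.38 ± 0.30 in CD105- cells (2.6-fold, adjusted p = 0.0152). In CD105+ cells the 6C3 step was -0.83 ± 0.30 with an adjusted p of 0.322. Leaving out any single array left both Thy calls in place. The 6C3 call was lost without replicate 1 of Thy-6C3-CD105- (-1.15, adjusted p = 0.0877) and without replicate 3 of Thy-6C3+CD105- (-1.10, adjusted p = 0.0868). A fit of the compared populations alone lost it as well. This step also rests on the population field, since titles of replicates 2 and 3 of Thy-6C3+CD105- say Thy+. Grouping by title leaves 1 array in that population. With the array standard deviation as a covariate the CD105- Thy step was -1.22 with an adjusted p of 0.113.

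The cartilage list moved with Hoxc8, with all 15 markers lower in both Thy steps (medians of -2.78 and -2.93). Its mean over arrays lay between 12.39 and 12.66 in the Thy-6C3- cells, between 10.05 and 10.65 in the 6C3+ cells and between 9.30 and 9.89 in the Thy+ cells. In the 6C3 steps 7 and 9 of the 15 were lower with and without CD105. Of 7 measured osteoblast markers 3 were lower and 1 (Col1a1) higher in the CD105+ Thy step and 5 were lower in the CD105- one, while a tendon and fibrous list ran the other way, with 8 and 9 of its 12 genes higher. Of all genes, 6.66% and 18% were called in the Thy steps with and without CD105, and 1.36% and 2.74% in the 6C3 steps. The part of these lists in the Hoxc8 difference was not tested. Among Hox genes, its cluster neighbour Hoxc6 was 1.15 higher in the CD105- Thy step, and Hoxc9 gave 0.75 without a call (adjusted p = 0.108).

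Hoxd9, which acts with its paralogs in the upper limb segment, was highest in the 6C3+ populations. Its levels there were 9.46, 9.09 and 9.53 with CD105 and 9.31, 10.04 and 9.73 without it. In Thy-6C3- cells they were 8.42, 8.81 and 8.57 with CD105 and 8.36, 8.18 and 8.10 without it. In Thy+ cells they were 8.73, 8.57 and 8.67 with CD105 and 8.78, 8.82 and 8.38 without it. All 6 arrays of 6C3+ cells lay above the other 12.

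In the 6C3 step Hoxd9 rose by 1.48 ± 0.21 in CD105- cells (2.8-fold, adjusted p = 0.000307), and this call stood when any single array was left out. In CD105+ cells the step was 0.76 ± 0.21 with an adjusted p of 0.0974. The difference between the steps, -0.73 ± 0.29, was not called (adjusted p = 0.999). Thy+ minus 6C3+ among CD105- cells it was -1.04 ± 0.21 (2.05-fold, adjusted p = 0.0102), a call lost without replicate 2 of Thy-6C3+CD105- (-0.86, adjusted p = 0.0702). With arrays grouped by title, which leaves 1 array of Thy-6C3+CD105-, the 6C3 step was 1.10 (adjusted p = 0.0659).

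Hoxa10, a further limb gene that patterns the upper segment, was lowest in Thy+6C3-CD105- cells. Its levels there were 6.02, 7.04 and 5.61, and 6.40, 6.67 and 7.32 in Thy+6C3-CD105+ cells. The Thy-6C3- cells had 7.06, 7.28 and 6.91 with CD105 and 7.70, 7.57 and 7.04 without it. The 6C3+ cells had 7.79, 7.71 and 7.74 with CD105 and 7.46, 7.92 and 7.88 without it.

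Hoxa10 fell by 1.21 ± 0.31 in the Thy step of CD105- cells (2.32-fold, adjusted p = 0.0143), where the lowest Thy- and the highest Thy+ array both read 7.04 after rounding and the groups did not overlap. Thy+ minus 6C3+ among CD105- cells it was -1.53 ± 0.31 (2.89-fold, adjusted p = 0.0116). Without replicate 3 of Thy+6C3-CD105-, these were -0.91 (adjusted p = 0.0721) and -1.23 (adjusted p = 0.053). The first was also lost without replicate 1 of Thy-6C3-CD105- (-1.08, adjusted p = 0.0583), the second without replicate 2 of Thy-6C3+CD105- (-1.45, adjusted p = 0.0617). The second Hoxa10 probe set, at a mean of 4.29, changed by 0.18 in the Thy step (adjusted p = 0.363).

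Hoxb5, a gene of the neck and forelimb level, was highest in Thy+6C3-CD105+ cells, at 5.24, 5.61 and 5.81. All other neonatal arrays lay between 4.49 and 5.07. Even its highest population mean, 5.55, lay below the median gene mean of 6.76, and without detection calls such low levels cannot be told from background. Hoxb5 rose by 0.60 ± 0.17 in the Thy step of CD105+ cells (1.52-fold, adjusted p = 0.0344) and by 0.78 ± 0.17 in the CD105 step of Thy+ cells (1.71-fold, adjusted p = 0.0301). Both calls rested on single arrays: without replicate 3 of Thy+6C3-CD105+ the steps were 0.47 (adjusted p = 0.198) and 0.65 (adjusted p = 0.204), and without its replicate 2 they were 0.58 (adjusted p = 0.125) and 0.75 (adjusted p = 0.147). The Thy call was also lost without any 1 array of Thy-6C3-CD105+ (adjusted p = 0.0529 to 0.126). The CD105 call was also lost without replicate 2 or 3 of Thy+6C3-CD105- (adjusted p = 0.0514 and 0.0692).

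The pericyte and smooth muscle list of 12 genes moved with Hoxb5. Its mean over arrays was 9.54 to 9.72 in Thy+6C3-CD105+ cells and 7.48 to 8.24 in the other populations, with 10 of 12 genes higher in that Thy step and 6 of 12 in the CD105 step of Thy+ cells. Of 12 endothelial genes, 4 were also higher in that Thy step (Esam by 2.32, Sox18 by 1.43, Tek by 1.11 and Flt1 by 1.05), and Esam was 2.04 higher in that CD105 step. The median of the endothelial list in that Thy step was 0.09, where all genes had -0.02. Others of the list, such as Pecam1 (-0.531) and Tie1 (-0.435), were lower without a call. Of all genes, 6.66% were called in that Thy step and 1.02% in that CD105 step. The part of either list in the Hoxb5 difference was not tested. Hoxc4 had its highest population mean, 6.39, in the same population, though its highest array, at 6.58, was replicate 3 of Thy-6C3-CD105-. Its CD105 step in Thy+ cells was 0.68 ± 0.21 with an adjusted p of 0.114.

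Hoxc6, a gene of the forelimb and upper thoracic level, was highest in Thy+6C3-CD105- cells, at 6.62, 7.37 and 7.73. The Thy-6C3-CD105- arrays were at 5.93, 6.12 and 6.21, and the Thy step of CD105- cells was 1.15 ± 0.38 (2.22-fold, adjusted p = 0.045). Single arrays reached similar levels elsewhere: replicate 3 of Thy-6C3+CD105- was at 7.49 and replicate 3 of Thy-6C3-CD105+ at 7.11. Further probe sets gave 1.11 (adjusted p = 0.0431) and 0.24 (adjusted p = 0.292). The call was lost in 12 of the 18 fits that left out 1 array (adjusted p = 0.0507 to 0.179, the last without replicate 3 of Thy+6C3-CD105- at 0.90), and the change was 0.01 with the array standard deviation as a covariate.

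**Figure D2:**
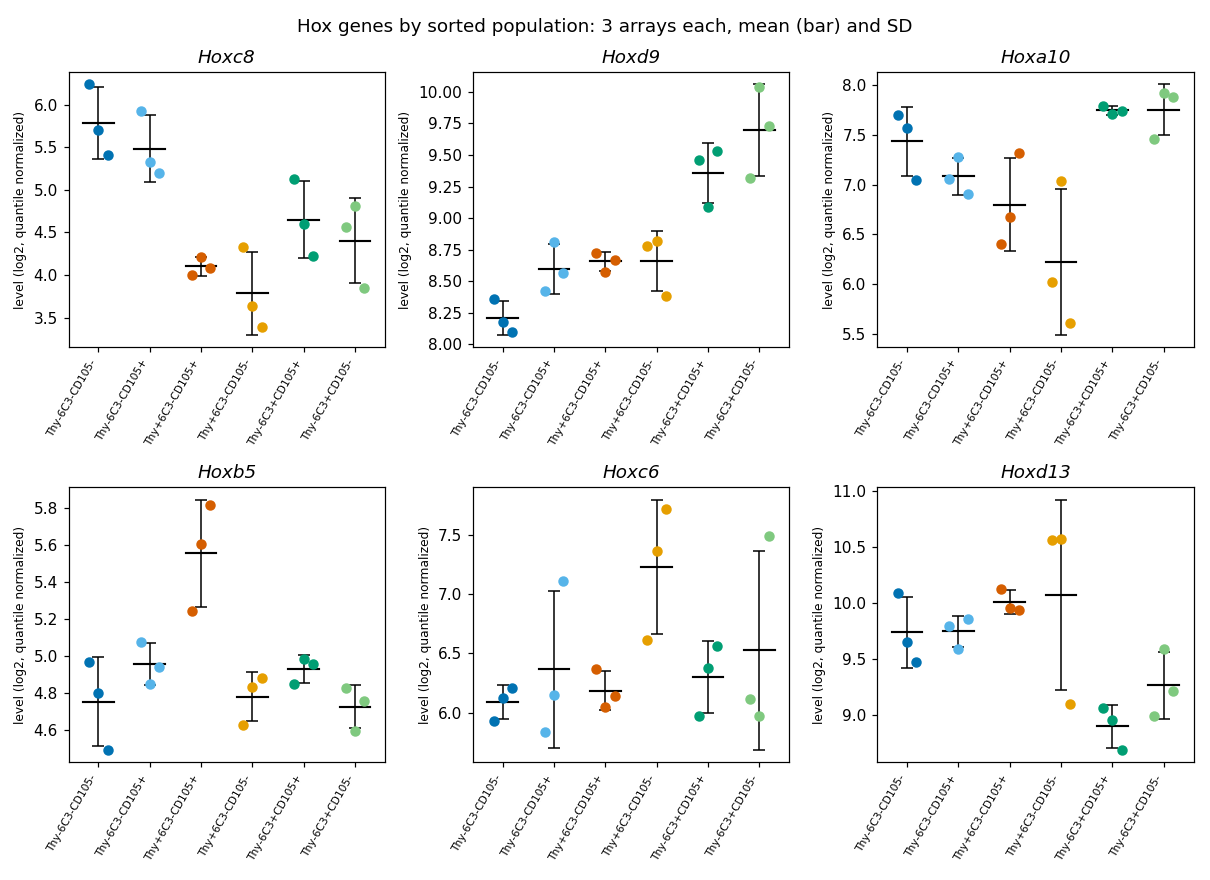
Log2 levels (y axis) of Hoxc8, Hoxd9, Hoxa10, Hoxb5, Hoxc6 and Hoxd13 by population (x axis), with each array as a point, the mean as a bar and the SD as whiskers. Hoxc8 is highest in the 2 Thy-6C3- populations, Hoxd9 in the 2 6C3+ populations and Hoxb5 in Thy+6C3-CD105+ cells, where it lies between 5.24 and 5.81.

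Counted by comparison, the Thy step called 2 of 33 members in CD105+ cells (Hoxb5 up, Hoxc8 down), beside 6.66% of all genes, and 3 in CD105- cells (Hoxc6 up, Hoxa10 and Hoxc8 down), beside 18% of all genes. The 6C3 step called 2 in CD105- cells (Hoxd9 up, Hoxc8 down), beside 2.74% of all genes. Among CD105- cells, Thy+ minus 6C3+ called 2 (Hoxa10 and Hoxd9, both lower), beside 2.24%, and the CD105 step in Thy+ cells called Hoxb5 alone, beside 1.02%. The remaining comparisons called no member in limma. The share of all genes called was 1.36% in the 6C3 step in CD105+ cells and 2.59% for Thy+ minus 6C3+ among CD105+ cells. It was 0.0055% in the CD105 step in Thy-6C3- cells and 0% in the CD105 step in 6C3+ cells. At an unadjusted p under 0.05, the first 2 had 6 members (18.2%, beside 7.61% of all genes) and 7 members (21.2%, beside 7.79%). The CD105 steps had 1 member (3.03%, beside 1.75%) and 0 members (beside 2.74%).

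Neither test of a difference between steps called a member. Between the Thy steps with and without CD105, 8 members (24.2%) had an unadjusted p under 0.05, beside 16.7% of all genes. Between the 6C3 steps, 2 members (6.06%) did, beside 2.98% of all genes. At the adjusted threshold 0.269% and 0% of all genes were called. The probe set used for Hoxa5 had the largest difference between steps, with Thy steps of -0.64 and 1.13 and a difference of -1.77 ± 0.60 (adjusted p = 0.233).

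**Figure D3:**
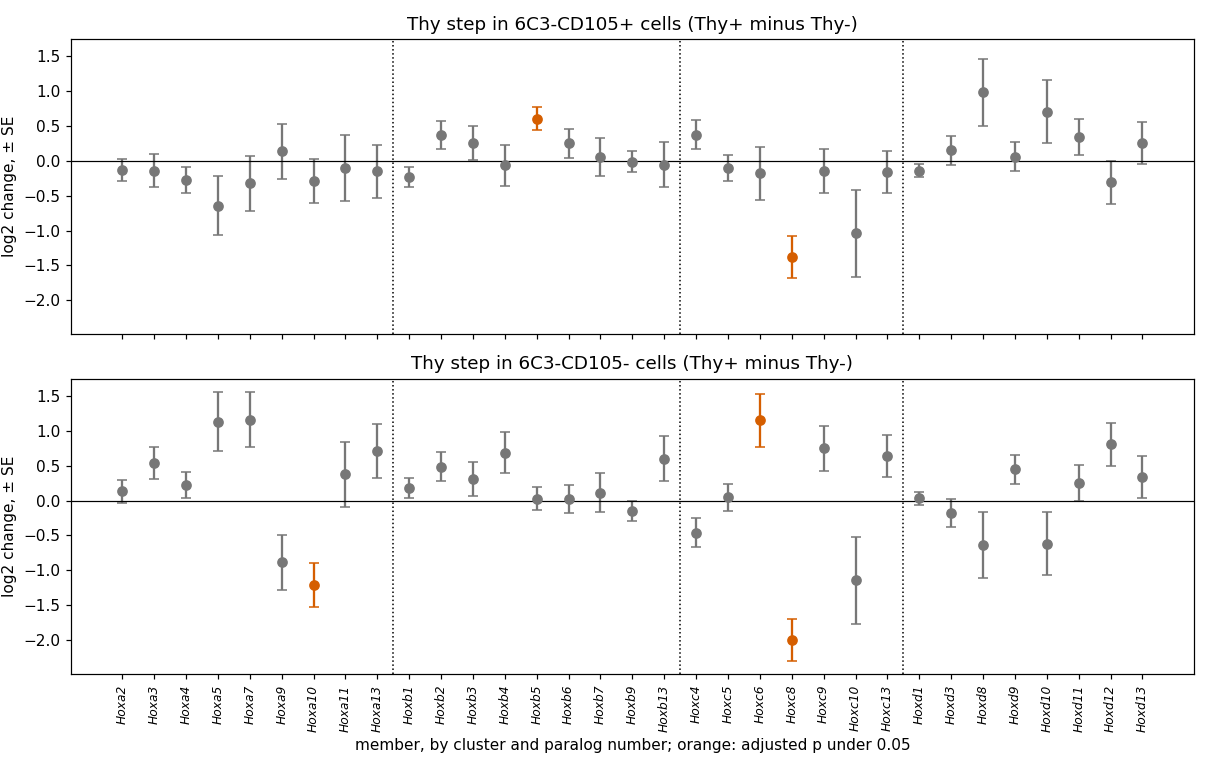
Log2 change of each of the 33 members in the Thy step (points, y axis, with SE) in CD105+ cells (upper panel) and CD105- cells (lower panel), with genes by cluster and paralog number on the x axis. Orange points were called: Hoxb5 and Hoxc8 above, Hoxa10, Hoxc6 and Hoxc8 below.

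The posterior genes of cluster D that pattern the lower limb differed among themselves. Hoxd13, needed for digits, had levels in 6C3+ cells of 9.06, 8.96 and 8.69 with CD105 and 8.99, 9.59 and 9.21 without it. It reached 10.13, 9.96 and 9.94 in Thy+6C3-CD105+ cells and 9.47 to 10.09 in the Thy-6C3- arrays. In Thy+6C3-CD105- cells 2 arrays were at 10.56 and 10.57 and replicate 3 was at 9.10. The F-test did not call it (adjusted p = 0.069). Without that replicate it was called, and its Thy step in CD105- cells was 0.82 ± 0.20 (adjusted p = 0.0161) in place of 0.33 ± 0.30.

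By population mean, Hoxd9 and Hoxd13 of the same cluster were ordered oppositely in the 6C3+ populations: Hoxd9 was highest and Hoxd13 lowest there. Hoxd8 had its highest mean, 9.27, in Thy-6C3+CD105+ cells and its lowest, 7.62, in Thy+6C3-CD105- cells, with a pooled replicate SD of 0.673 (F-test adjusted p = 0.126). A second Hoxd8 probe set was called by the F-test (adjusted p = 0.0141, over all probe sets) and was 1.70 ± 0.39 lower in Thy+ than in 6C3+ cells among CD105- cells. Hoxd10, Hoxd11 and Hoxd12 had means of 5.19, 5.20 and 4.89 over the 18 arrays and were not called. Hoxd1 and Hoxd3, at 3.58 and 4.46, had ranges between population means of 0.26 and 0.39.

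In cluster A, the limb genes Hoxa9, Hoxa11 and Hoxa13 were not called. Among CD105- cells the probe set used for Hoxa9 stood at 9.53 ± 0.72 (SD, n = 3) without Thy and 6C3 and at 8.64 ± 0.97 with Thy, with replicate 3 of the latter at 7.57 (adjusted p = 0.12). Hoxa11 ranged from 6.43 to 8.71 over single arrays, with a range between population means of 0.57. Hoxa13 ranged from 5.02 to 7.02. The anterior members Hoxa2 and Hoxa4 had means of 4.11 and 3.91.

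Probe sets of the same gene disagreed in cluster A. In the Thy step of CD105- cells the Hoxa5 probe set used here gave 1.13 ± 0.42 (adjusted p = 0.0792, fitted over all probe sets), and the other gave -1.26 ± 0.31 (adjusted p = 0.0136). For Hoxa9 the values were -0.89 ± 0.40 (adjusted p = 0.134) and 1.04 ± 0.34 (adjusted p = 0.0495). For Hoxa3 they were 0.54 ± 0.24 (adjusted p = 0.123) and -0.82 ± 0.21 (adjusted p = 0.0164), with the remaining probe sets at 0.31 and 0.01. The values given for Hoxa5, Hoxa9 and Hoxa3 therefore hold for their probe sets and give no direction for the genes. A probe set of the antisense gene Hoxd3os1 was 1.66 ± 0.44 higher in the Thy step of CD105+ cells (adjusted p = 0.037) and 1.95 ± 0.44 higher in the 6C3 step of CD105- cells (adjusted p = 0.0285), where Hoxd3 itself was not called.

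Cluster B had a median range between population means of 0.47, and Hoxb5 was its only called member. Hoxb1, Hoxb6, Hoxb7 and Hoxb9 had ranges of 0.28, 0.47, 0.25 and 0.18. Hoxb2, Hoxb3 and Hoxb4 had ranges of 0.55, 0.42 and 0.69, and Hoxb13, which belongs to the tail end of the axis, of 0.60. In cluster C, Hoxc5 and Hoxc13 had means of 5.64 and 5.35, with ranges between population means of 0.24 and 0.76. Hoxc9 had its highest level, 8.67, on replicate 3 of Thy+6C3-CD105- cells, and its other arrays lay between 6.79 and 7.88. The probe sets shared by Hoxd4 and Hoxd3 had population means of 4.91 to 5.60, and the one shared by Hoxb8 and Hoxb7 of 4.23 to 4.47.

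Thy+6C3-CD105- cells held the highest population mean for 16 of 33 members (48.5%), where they did so for 38.3% of all genes. Without replicate 3 the numbers were 14 members (42.4%) and 31.9% of all genes. On that array alone, 9 members had their highest level of the 18 arrays (Hoxa7, Hoxa13, Hoxb3, Hoxb4, Hoxb13, Hoxc6, Hoxc9, Hoxd11 and Hoxd12), 27.3% beside 26.5% of all genes. A further 6 had their lowest (Hoxa9, Hoxa10, Hoxc8, Hoxd3, Hoxd8 and Hoxd10), 18.2% beside 17.9% of all genes. Hoxa7, for example, read 7.80, 8.80 and 9.35 in this population, a Thy step of 1.16 ± 0.40 (adjusted p = 0.0501) that was 0.81 ± 0.40 without replicate 3 (adjusted p = 0.217). The mean of the keratinocyte list of 11 genes was also highest in this population, at 6.14 to 6.55 over its arrays against 5.22 to 5.62 elsewhere. In the Thy step Krt5 (2.31), Krt14 (2.09) and Krt15 (2.75) were called and no other gene of the list was. The list median was 0.30, Trp63 gave 0.19, and Perp (-0.51) and Lor (-0.24) were lower. In the same step 2 of 12 myeloid genes (Laptm5 by 2.29, Csf1r by 1.21), 3 of 12 endothelial genes (Sox18 by 1.57, Tek by 1.51, Plvap by 1.06) and 2 of 12 skeletal muscle genes (Ckm by 0.92, Chrna1 by 0.61) were called higher. Other members went the other way without a call, such as Cd14 (-0.73) of the myeloid and Emcn (-0.10) of the endothelial list. Of all 18193 genes, 3271 (18%) were called in this step, 1915 of them higher. The medians of these 3 lists were 0.23, 0.43 and 0.18, where all genes had 0.13. The part of this array and of these lists in the levels of these members was not tested.

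Hoxc10 and Hoxa11 varied widely between arrays of a population, with pooled SDs of 0.895 and 0.655. Hoxc10, which is expressed in the hind limb, read 7.72, 5.15 and 5.21 in Thy+ cells without CD105 and 7.99, 5.33 and 6.77 in 6C3+ cells without CD105. With CD105 it read 5.62, 5.91 and 6.11 in Thy+ cells and 6.96, 6.62 and 7.91 in 6C3+ cells. In Thy-6C3- cells it read 6.71, 7.48 and 6.58 with CD105 and 6.73, 7.38 and 7.40 without it. The poly-A controls, bacterial transcripts added to the RNA, divide the neonatal arrays into 11 with high and 7 with low values, and the high Hoxc10 arrays were mostly among the low ones. In 5 of the 6 populations Hoxc10 was higher in the low set, by 0.66 to 2.54, and in Thy+6C3-CD105+ it was 0.39 lower.

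In a fit with a term for the set, low minus high was 1.12 ± 0.28 for Hoxc10 (adjusted p = 0.0294) and 0.89 ± 0.19 for Hoxa11 (adjusted p = 0.0131). They were the 2 of 33 members called, a share near the 5.74% of all genes called. The set values were examined after the data were seen. Pitx1 and Tbx4, which specify the hind limb, were also higher in the low set, by 0.84 ± 0.15 (adjusted p = 0.00378) and 0.64 ± 0.13 (adjusted p = 0.00911), and Tbx5 of the forelimb gave 0.22 ± 0.17 (adjusted p = 0.525). Fore and hind limbs were pooled in every sample, and the part of the hind limb share in these values was not tested. For all 10 called population changes the arrays of the compared populations did not overlap, so no subset of them could reverse the direction. That each set kept the direction was therefore fixed beforehand and tests nothing. Some arms hold 1 array when the sets are split. The 6C3 step of Hoxd9 in CD105- cells was 1.53 among the high arrays and 1.18 among the low ones. The Thy step of Hoxc8 in CD105- cells was -2.72 and -1.23, in the same order. In the high set alone 2 of the 10 were still called, the Thy step of Hoxc8 in CD105- cells (adjusted p = 0.0115) and Thy+ minus 6C3+ of Hoxd9 (adjusted p = 0.0449).

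**Figure D4:**
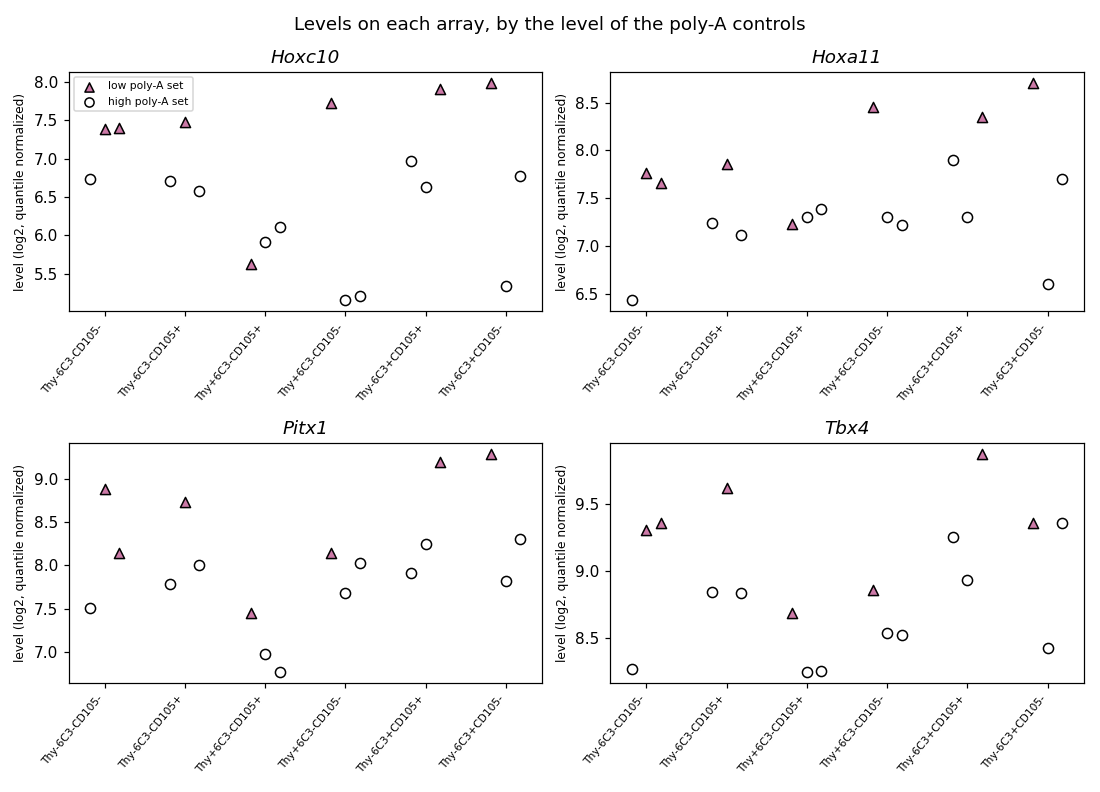
Log2 levels (y axis) of Hoxc10, Hoxa11, Pitx1 and Tbx4 on each array by population (x axis), with triangles for arrays with low and circles for arrays with high poly-A controls. Triangles lie above the circles of their population for Hoxc10 and Hoxa11 except in Thy+6C3-CD105+ cells, where Hoxc10 was 0.39 lower in the low set.

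On the adult array many Hox genes read outside the range of the neonatal arrays, and 13 of 33 members read within it. Of 33 members, 11 read above all 18 neonatal arrays (33.3%, beside 11.7% of all genes) and 9 read below all 18 (27.3%, beside 14.2%). Those above were 5 of 10 in groups 1 to 4, 5 of 9 in groups 5 to 8 and 1 of 14 in groups 9 to 13. Those below were 8 of 14 in groups 9 to 13 and 1 of 9 in groups 5 to 8. With a single array there is no test, and its age and antigens differ from the neonatal groups while its labels conflict on the tissue, so their effects cannot be told apart.

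Hoxc8 had the largest difference, at 10.94 on the adult array against 3.39 to 6.24 on the neonatal ones. Hoxb6 was at 8.33 against 3.45 to 4.62, Hoxa2 at 7.19 against 3.77 to 4.49 and Hoxb5 at 7.93 against 4.49 to 5.81. Hoxc4 was at 8.02 against 5.54 to 6.58 and Hoxc6 at 8.35 against 5.84 to 7.73. These are genes of the hindbrain, neck and trunk levels. No fold is given, since the table used here has no detection calls and a low level cannot be told from background.

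The genes below were Hoxa9, Hoxa10, Hoxa11 and Hoxa13, Hoxc10 and 4 of cluster D, while Hoxd11 and Hoxd12 lay within the neonatal range. Hoxa9 was at 4.47 against 7.57 to 10.18, Hoxd13 at 4.96 against 8.69 to 10.57, Hoxa10 at 3.38 against 5.61 to 7.92 and Hoxd9 at 6.01 against 8.10 to 10.04. Hoxa11 was at 4.84, Hoxc10 at 4.24, Hoxd8 at 5.89, Hoxd10 at 3.37 and Hoxa13 at 4.94, all below every neonatal array. Other probe sets did not all follow: the second of Hoxa9 read 6.55 on the adult array, within the neonatal 6.42 to 8.21, and the second of Hoxa10 read 4.10, within 3.99 to 4.54. The second of Hoxd13, at 5.14, lay below the neonatal 5.27 to 6.31. Second probe sets of Hoxa5 and Hoxb3 read 10.25 and 7.49, above neonatal maxima of 7.53 and 5.52. The cartilage list had a mean of 11.65 on this array and the tendon and fibrous list of 7.81, below the neonatal arrays at 9.46 to 11.32.

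**Figure D5:**
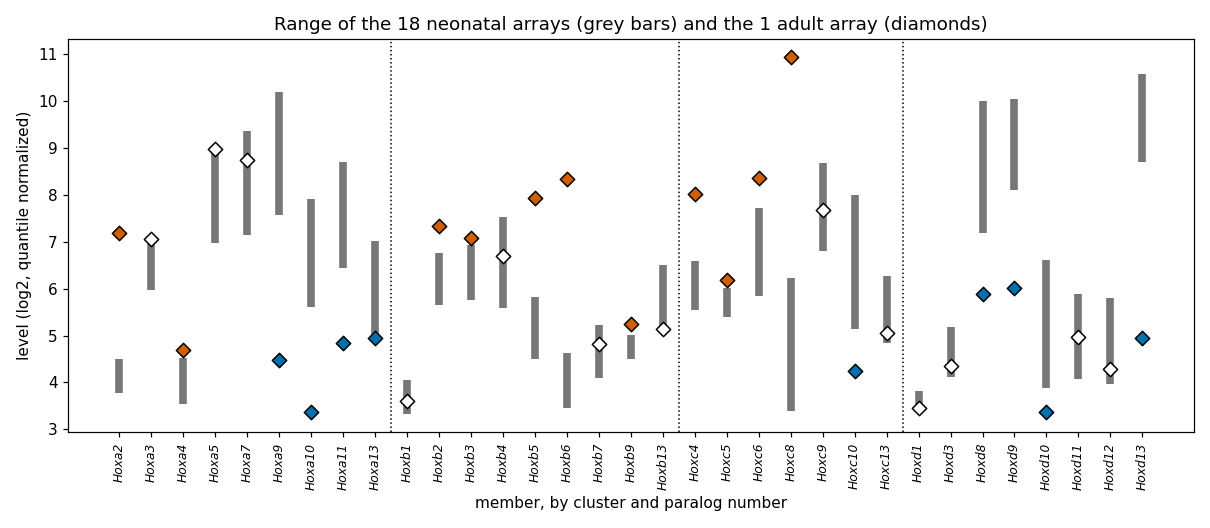
Log2 level (y axis) of each of the 33 members on the adult array (diamonds), with the range of the 18 neonatal arrays as a grey bar, and genes by cluster and paralog number on the x axis. Orange diamonds (11 genes) lie above and blue diamonds (9 genes) below all neonatal arrays, with Hoxc8 at 10.94 farthest above its own range.

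Of the Hox cofactors on the TALE list, 9 of 10 were measured and 2 were called across the populations, beside 10.1% of all genes. Pbx3 rose in both Thy steps, by 0.81 ± 0.24 in CD105+ (adjusted p = 0.0478) and 1.45 ± 0.24 in CD105- cells (adjusted p = 0.000499). Meis1, which marks the upper limb in the embryo, rose by 1.54 ± 0.27 in the CD105 step of Thy+ cells (adjusted p = 0.00619), the step in which Hoxb5 rose. The list had 1 of 9 called in each Thy step, beside 6.66% of all genes in CD105+ and 18% in CD105- cells. Its medians there were 0.27 and -0.45, where all genes had -0.02 and 0.13. On the adult array Meis1 read 9.42 against 5.90 to 7.74.

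Among 18 factors of limb regions, 5 were called across the populations, beside 10.1% of all genes. In the Thy step 4 rose in CD105+ cells (6.66% of all genes called), and 2 rose and 1 fell in CD105- cells (18% of all genes called), with list medians of 0.15 and -0.08. Irx5 (1.97 ± 0.36, adjusted p = 0.0017), Irx3 (1.61 ± 0.41, adjusted p = 0.022) and Hand2 (1.34 ± 0.34, adjusted p = 0.0196) rose most in CD105+ cells. Shox2, a factor of the upper limb segment, fell by 2.62 ± 0.33 in CD105- cells (adjusted p = 4.5e-05), the step in which Hoxa10 fell, and its Thy steps differed with and without CD105 (2.80 ± 0.47, adjusted p = 0.0113).

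Of 13 upstream genes, 3 were called across the populations, beside 10.1% of all genes. The retinoic acid binder Crabp1 rose by 2.48 ± 0.37 and 1.80 ± 0.37 in the Thy steps (adjusted p = 0.000223 and 0.00324), the retinoic acid producer Aldh1a2 rose by 1.44 ± 0.30 in CD105- cells (adjusted p = 0.00417), and the degrading enzyme Cyp26b1 rose by 1.04 ± 0.24 in CD105+ cells (adjusted p = 0.0111). In the Thy step of CD105+ cells the list had 2 genes called, both higher, beside 6.66% of all genes. In the Thy step of CD105- cells it had 3 called, 2 higher and 1 lower, beside 18% of all genes. Not every gene of the list rose: Rarg had a mean of 11.16 in Thy-6C3-CD105- cells and of 10.05 in Thy+6C3-CD105- cells. Of 17 measured Polycomb and Trithorax genes the only call was Eed, a subunit of the Polycomb complex that methylates histones, lower by 0.64 ± 0.19 in the Thy step of CD105- cells (adjusted p = 0.0264). Of 16 measured neighbours of the clusters the only call was Skap2 beside cluster A, which fell by 0.85 ± 0.21 in the same step (adjusted p = 0.0105).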

How the data were processed

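RNA of 19 samples was hybridized to Affymetrix mouse genome arrays after 2 rounds of amplification, per the labels' protocols. The authors' deposited table gives levels of 45101 probe sets, taken as log2 from their range; the step from scans to these values has no description in the labels. Array medians ran from 5.60 to 6.02, so all 19 arrays were quantile normalized. Probe sets with several symbols (932), none (9160) or of controls (64) were left out, and no filter on low values was used. limma 3.58.1 in R 4.3.3 fitted 1 mean per population over 18 arrays (lmFit, eBayes with trend, 12 residual and 5.38 prior degrees of freedom); tests were two-sided. Members, lists and tests were chosen with earlier results of these data known. Named genes were members called in a comparison and, per other list, up to 3 called genes of largest change; Hoxd13, Hoxc10, Hoxa11 and further uncalled members were described after their values were seen. Arrays carry no counts, and 3 arrays per population limit the precision. The fit was tested on simulated data. Array weights, scalings, probe set choices, blocks, title grouping and leaving out arrays were alternatives. Promoters came from RefSeq. Figures used matplotlib 3.10.9.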

Additional observations from a re-analysis of the deposited data

Results flagged for a closer look

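The array labelled adult enters no comparison, and on it 11 Hox genes read above every one of the 18 neonatal arrays. Their log2 levels were 7.19 for Hoxa2, 4.69 for Hoxa4, 7.34 for Hoxb2, 7.07 for Hoxb3, 7.93 for Hoxb5, 8.33 for Hoxb6, 5.25 for Hoxb9, 8.02 for Hoxc4, 6.18 for Hoxc5, 8.35 for Hoxc6 and 10.94 for Hoxc8. Of all genes 11.7% read above the 18 neonatal arrays. The highest neonatal array lay close below for Hoxb3 (6.93), Hoxc5 (6.01), Hoxa4 (4.51) and Hoxb9 (5.01).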

How the results depend on the processing

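Over 304 repeats of the 10 called changes under alternatives, 241 stayed called, 63 were no longer called and 0 changed direction. The repeats include the fits that left out a single array. Leaving out an array of another population does not alter the means compared. Leaving out an array of a compared population could not reverse the direction, since the arrays of those populations did not overlap. For such fits the absence of reversals was fixed beforehand and is no test of direction. The array standard deviation as a covariate and the adult alternatives were chosen after seeing the data.

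Counts of Hox genes called moved as follows. The share of all genes called under each alternative, leaving out arrays included, is not given here. A count that moved therefore cannot be read as particular to Hox genes. Values as deposited gave 1 in the CD105+ Thy step and 0 in the CD105 step of Thy+ cells. Testing genes above the median mean alone, which leaves 9 members, gave 0 in both of these, 1 in the CD105- 6C3 step and 2 by the F-test. The mean of probe sets gave 1 for Thy+ minus 6C3+ among CD105+ cells, as did the poly-A set as a block. Leaving out probe sets open to cross-hybridization gave 5 in the CD105- Thy step. Array weights gave 10 by the F-test, 10 in the CD105 step of Thy+ cells, 2 in the CD105+ 6C3 step, 6 and 1 for Thy+ minus 6C3+ with and without CD105, and 1 for the difference between Thy steps. The 11 arrays with high poly-A controls gave 0 and 1 in the Thy steps with and without CD105, 0 in the CD105- 6C3 step, 0 in the CD105 step of Thy+ cells, 1 for Thy+ minus 6C3+ among CD105- cells and 2 by the F-test. Grouping by title gave 0 in the CD105- 6C3 step and 0 for Thy+ minus 6C3+ among CD105- cells; its lone Thy-6C3+CD105- array is assumed to vary like the other groups. Fits of the compared populations alone gave 1 in the CD105- Thy step, 1 in each 6C3 step, 0 in the CD105 step of Thy+ cells, and 4 and 0 for Thy+ minus 6C3+ with and without CD105. The array standard deviation as a covariate gave 0 in the CD105- Thy step, 0 in the CD105 step of Thy+ cells, and 1 and 0 for Thy+ minus 6C3+ with and without CD105. The causes were not tested.

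With the replicate number as a block, 1 gene was called in the CD105+ Thy step and 1 for Thy+ minus 6C3+ among CD105+ cells. The numbers were not taken to pair the arrays: over 45 same-numbered pairs the deviations correlated at a mean of 0.0126 (-0.564 to 0.67), 19 pairs were over 0.1, and 8 of 18 arrays correlated best with their own number.

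Leaving out 1 array gave 3 to 5 genes by the F-test, 1 to 2 in the CD105+ Thy step, 1 to 9 in the CD105- Thy step (9 without replicate 1 of Thy+6C3-CD105-), 0 to 2 and 1 to 2 in the 6C3 steps with and without CD105, 0 to 2 in the CD105 step of Thy+ cells, 0 to 1 and 0 to 2 for Thy+ minus 6C3+ with and without CD105, and 0 elsewhere. Adult minus neonatal values moved under the mean of probe sets for Hoxa5 (2.51), Hoxa9 (-2.69), Hoxa10 (-1.99), Hoxb3 (1.80) and Hoxd13 (-2.70). The table used here has no detection calls, so changes of members at low levels cannot be told from background.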
